A study of Mus musculus with 12 samples.

Results

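The genes described here encode the stress peptides of the corticotropin-releasing factor (CRF) and CART systems in the dorsal raphe (DR) of mice. They are the ligand genes Crh, Ucn and Cartpt, the receptor genes Crhr1 and Crhr2, and Crhbp, which encodes the CRF binding protein. They were chosen by symbol, and make up 6 of the 24421 genes in the count files. RNA was sequenced from 12 mice, with 1 library per animal. The 8 STAT3 KO mice (4 females and 4 males) were Sert Cre/+; Stat3 fl/fl, and the 4 controls (2 females and 2 males) were littermates that were Sert Cre/+; Stat3 fl/+. All animals therefore carried Cre, driven from the serotonin transporter locus, and at least 1 floxed Stat3 allele, so that serotonergic cells of the controls could also lose 1 copy. Mice were on a C57BL/6 x 129 background, were kept in single housing and were 8 to 16 weeks old when experiments began. The DR was cut as a square of tissue below the aqueduct. Each library thus holds RNA of serotonergic cells and of all their neighbours, and fewer cells of a type and less RNA per cell cannot be told apart in it.

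CRF, encoded by Crh, starts the hormonal stress response and also acts as a transmitter within the brain, including in the raphe. CRF prefers the receptor CRFR1, urocortin 1 (Ucn) binds both CRFR1 and CRFR2, and both receptors couple mainly to adenylyl cyclase through stimulatory G proteins. In the rodent midbrain, urocortin 1 is made above all by the peptidergic neurons of the Edinger-Westphal nucleus, which lies just in front of the DR at the midline and whose cells also make the peptide CART (Cartpt).

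The samples differed in neighbouring tissue before any member was considered. Between 24379588 and 29645210 reads were counted on genes per library, where 3 counts, taken as the floor, equal 0.101 to 0.123 CPM (reads of a gene scaled by the library's total), for counting error only. All 8 serotonergic markers were read, and their summed level ranged over 1081 to 1314 CPM among controls and 929 to 1438 CPM among STAT3 KO animals. Choroid plexus markers summed to 225 and 231 CPM in STAT3 KO 16 and STAT3 KO 8 and to at most 13.8 CPM in the other libraries. Forebrain excitatory neuron markers summed to 154 CPM in control 4 and 71.8 CPM in STAT3 KO 16, against at most 36.0 CPM elsewhere. Stat3 itself averaged 65.9 ± 1.26 CPM in the 4 controls and 66.6 ± 2.90 CPM in the 8 KO animals (SD). Its counts cover undeleted exons and all cells of the piece, so it does not check the labels.

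Of the ligands, Cartpt was the most abundant and Crh the least. On the scale of CPM per kilobase of exon, Cartpt had a mean of 150 over the 12 animals (19.0 to 439), above 98.7% of 14893 tested genes with a known exon length. Ucn followed with a mean of 33.1 CPM per kilobase (5.08 to 96.2). The receptor gene Crhr1 had 7.95 (6.06 to 10.7), Crhbp 6.24 (4.34 to 9.78), Crh 2.91 (1.82 to 4.13) and Crhr2 0.657 CPM per kilobase (0.352 to 0.908). Cartpt exceeded Ucn in 12 of 12 animals, Crhbp exceeded Crh in 12 of 12, and Crh exceeded Crhr2 in 12 of 12. The order of the middle genes was less sharp, since Ucn exceeded Crhr1 in 9 of 12 animals and Crhr1 exceeded Crhbp in 9 of 12. The other ligands of the family, urocortin 2 and urocortin 3, were near the floor, with 0 to 8 counts of Ucn2 and 0 to 7 counts of Ucn3 per library, and neither entered the tests.

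**Figure D1:**
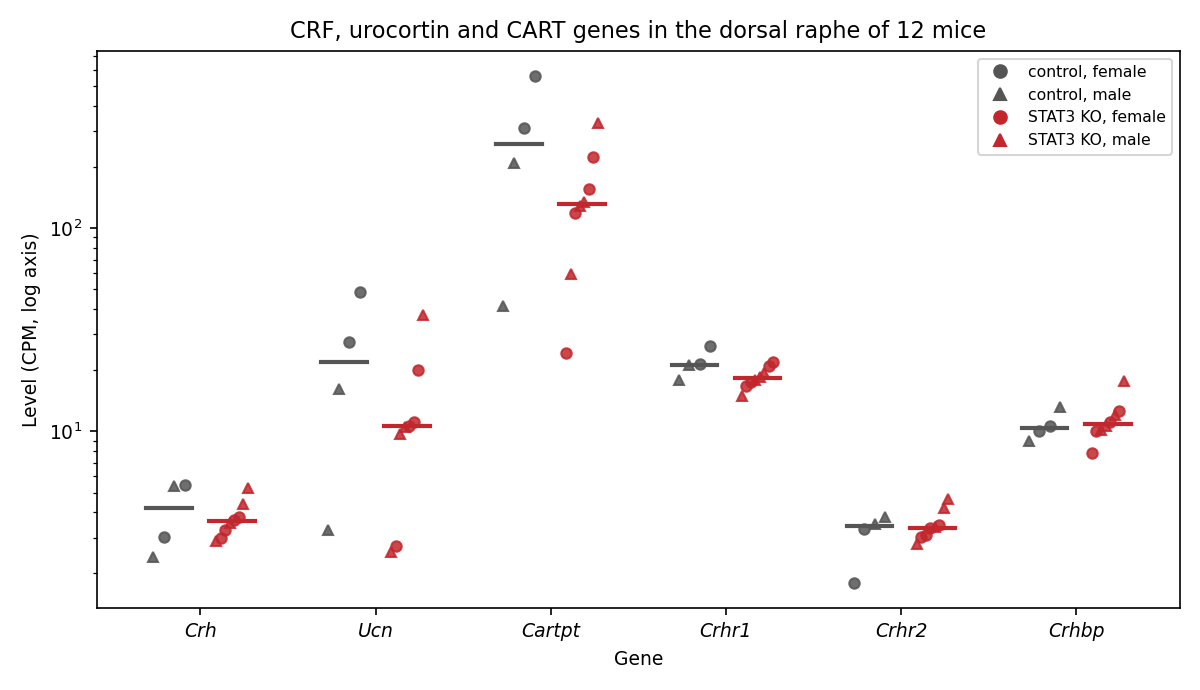
Level of each of the 6 genes in each animal, in CPM on a log axis, with circles for females, triangles for males and bars for the group medians. Ucn spans 2.56 to 48.5 CPM and Cartpt 24.3 to 561 CPM, and the genotypes overlap for each gene.

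The regulatory DNA of Ucn and Cartpt is shown as a description. These ligands varied together across the animals, as described below, and whether this DNA has a part in that was not tested. In the RefSeq table of promoters (GRCm38.p6, 250 bases before to 50 bases after each start), 5 of the 6 members had an entry, all but Crh. The full cAMP response element TGACGTCA, which reads the same on both strands and is the site bound by CREB family factors, lay in 2 of these 5, Ucn and Cartpt. It lay in 1.79% of all 32851 promoters in the table and in 3.46% of the 11648 that belong to tested genes. In Ucn it lay 44 to 37 bases before the RefSeq start, and in Cartpt 112 to 105 bases before it. The stretches are chr5:31138896-31139145 for Ucn, on the minus strand and upstream of the gene in GENCODE vM21, and chr13:99900777-99900806 for Cartpt, also on the minus strand and inside the first exon of the longer GENCODE transcript. They are written 5′ to 3′, with the element in capitals.
Ucn: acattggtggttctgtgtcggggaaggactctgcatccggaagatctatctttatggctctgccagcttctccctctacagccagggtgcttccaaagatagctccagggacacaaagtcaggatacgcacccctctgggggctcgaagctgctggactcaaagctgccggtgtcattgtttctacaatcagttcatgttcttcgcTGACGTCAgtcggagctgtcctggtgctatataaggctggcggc
Cartpt: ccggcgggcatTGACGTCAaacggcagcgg
The STAT motif TTCNNNGAA, searched on both strands, lay in 0 of the 5 members' windows and in 8.30% of all promoters. A match is a run of letters and not a measured binding site.

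Ucn (ENSMUSG00000038676.6, chr5:31138063-31138829, minus strand, 504 exonic bases) encodes urocortin 1. It was read at 27.6 CPM in control 13, 3.27 CPM in control 4, 48.5 CPM in control 3 and 16.2 CPM in control 11. In STAT3 KO mice its lowest level was 2.56 CPM, its median 10.6 CPM and its highest 37.3 CPM. Controls held both the highest animal of the series and 1 of the 3 lowest, and the genotypes overlapped widely. Cartpt (ENSMUSG00000021647.7, chr13:99898489-99901091, minus strand, 1277 exonic bases) encodes CART, a peptide of feeding and stress circuits. Its level was 310.26 CPM in control 13, 41.6 CPM in control 4, 561 CPM in control 3 and 209 CPM in control 11. In STAT3 KO mice it ran from 24.3 CPM through a median of 132 CPM to 331 CPM. The same 3 animals, control 4, STAT3 KO 8 and STAT3 KO 10, were lowest for Ucn and for Cartpt, and control 3, STAT3 KO 6 and control 13 were highest for both.

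These ligands varied far more between animals than the other members. The coefficient of variation of the CPM over the 12 animals was 86.5% for Ucn and 79.1% for Cartpt, against a median of 8.20% over the 15453 genes tested. Only 0.408% of the tested genes had a larger value than Ucn, and 0.511% a larger one than Cartpt. The coefficient was 27.4% for Crh, 22.2% for Crhbp, 21.1% for Crhr2 and 15.4% for Crhr1. From lowest to highest animal, Ucn spanned 18.9-fold and Cartpt 23.1-fold. The lowest library still held 71 counts of Ucn, and the lowest for Cartpt held 703.

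Ucn and Cartpt rose and fell together. Over the 12 animals, Pearson's r of their log2 CPM was 0.969 (permutation p = 1e-05, the smallest the permutations can give, adjusted p = 2e-05) and Spearman's rho was 0.972 (permutation p = 1e-05, adjusted p = 2e-05). Within the 8 STAT3 KO mice r was 0.942 (permutation p = 0.00053, adjusted p = 0.000707) and rho 0.952 (permutation p = 0.0011, adjusted p = 0.0011). The adjustment covers these 2 sets of animals with 2 measures each. Without control 3 and STAT3 KO 8, the animals farthest from the median of Ucn, r was 0.982. Since 3 animals sat apart at low levels, r was also computed over the other 9, where it was 0.981. It was 0.993 in the 6 females and 0.972 in the 6 males. The number of Cartpt counts per Ucn count stayed between 11.2 and 12.9 in controls, and between 8.88 and 23.4 with a median of 11.99 in STAT3 KO. The ratio thus spanned 2.63-fold over all animals, and 1.57-fold without STAT3 KO 8, which held the highest ratio on 71 counts of Ucn. Both spans are narrower than that of the level of either gene.

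**Figure D2:**
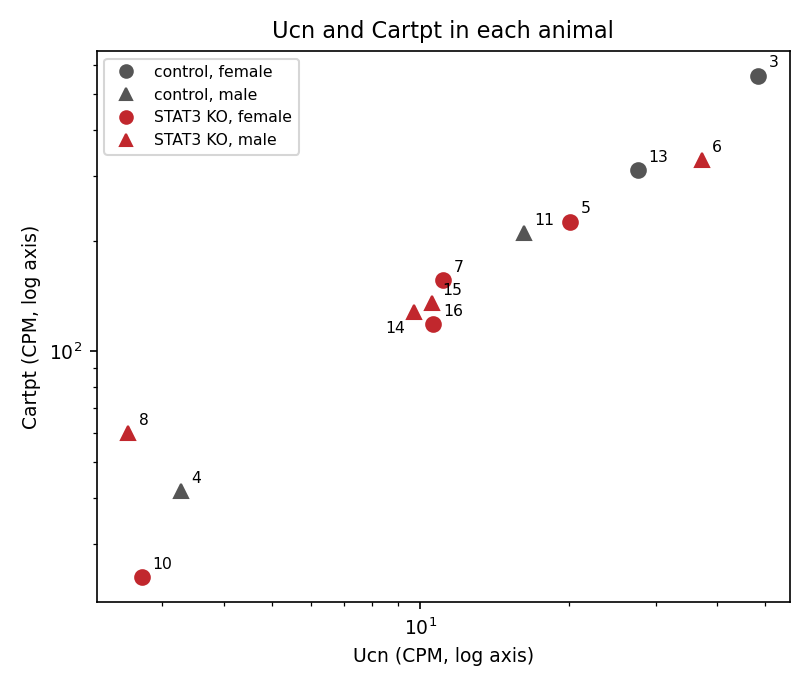
Ucn against Cartpt in each of the 12 animals, both in CPM on log axes, labelled by animal number. The animals lie along a single line (r = 0.969), with control 4, STAT3 KO 8 and STAT3 KO 10 at its low end and control 3 at its high end.

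Genes with the pattern most like these ligands were sought among 15452 tested genes, by r of log2 CPM over the 12 animals. These are the highest values of many, so they are given as a description. For Ucn they were Cartpt, then Pcolce2 (r = 0.936), an enhancer of procollagen processing, Pou4f1 (0.916), a transcription factor of sensory and midbrain neurons, Serpina3g (0.914), a protease inhibitor, and Dexi (0.902). For Cartpt they were Ucn, then Postn (0.968), which encodes the matrix protein periostin, Serpina3g (0.931), Nexn (0.921), an actin-binding protein, and Colq (0.917), the collagen tail of acetylcholinesterase. Leaving out any 1 animal left each of these values at 0.878 or above. Postn was also the sixth closest gene to Ucn (0.898).

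Postn belongs to a list of 5 further markers of peptidergic Edinger-Westphal neurons, and the list was uneven. Postn was 13.2 CPM in control 13, 3.95 CPM in control 4, 23.1 CPM in control 3 and 11.02 CPM in control 11, and 2.76 to 11.3 CPM with a median of 7.56 CPM in STAT3 KO. Ghsr, the ghrelin receptor gene, was highest in control 3 at 10.1 CPM and lowest in STAT3 KO 8 at 2.59 CPM, the animals with the highest and lowest Ucn, and its r was 0.760 with Ucn. Cck, the cholecystokinin gene, had a lower r of 0.573, and control 4, where Ucn was low, held its highest level at 42.6 CPM. Adcyap1, which encodes PACAP, and Nucb2, which encodes the precursor of nesfatin, moved little between animals. The cholinergic markers of the oculomotor and preganglionic neurons nearby did not share the order. Their sum was lowest in STAT3 KO 6 at 87.7 CPM, control 3 at 134 CPM and control 13 at 139 CPM, the 3 animals with most Ucn. The 6 dopaminergic markers were uneven in their likeness to Cartpt, with r of 0.861 for Th, 0.843 for Slc6a3, 0.721 for Pitx3, 0.692 for Aldh1a1, 0.190 for Nr4a2 and -0.058 for Slc18a2, which serotonergic cells also express. The part of neighbouring tissue in the spread of Ucn and Cartpt was not tested.

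**Figure D3:**
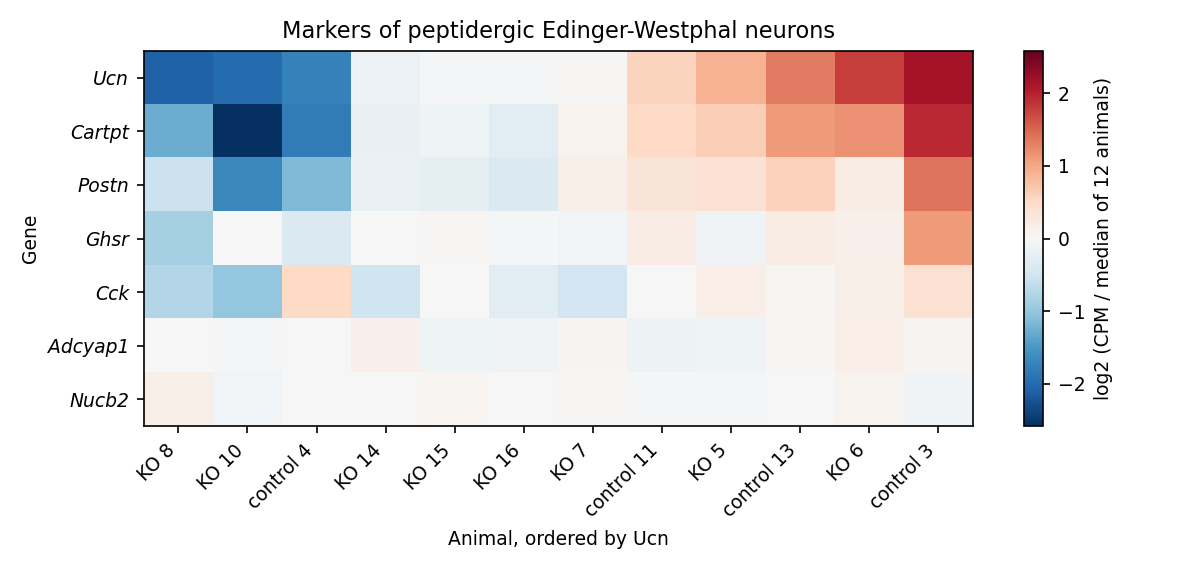
Level of Ucn, Cartpt and 5 other markers of peptidergic Edinger-Westphal neurons in each animal, as log2 of CPM over the gene's median of the 12 animals, with animals ordered by Ucn. Postn follows Ucn and Cartpt, Ghsr is lowest in STAT3 KO 8 and highest in control 3, and Adcyap1 and Nucb2 are nearly flat.

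The genotype comparison asked whether loss of serotonergic STAT3 goes with a different level of these genes. With edgeR's quasi-likelihood test and Benjamini-Hochberg adjustment over 15453 genes, 0 of the 6 members passed an adjusted p of 0.05, and percent called over all genes was 0. At an unadjusted p below 0.05, 1 of the 6 passed, Crhr1, beside 7.66% of all genes, which is 1184. It was lower in STAT3 KO, and 0 of 6 members had such a p with a higher level, beside 3.61% of all genes. With DESeq2, 6 genes were called among 20026 (0.03%) and none was a member, while Crhr1 was again the 1 member of 6 with an unadjusted p below 0.05, beside 6.21% of those genes. By the exact permutation test over animals, 0 of 6 had p below 0.05, beside 7.1% of all genes. The genotypes overlapped for all 6 members, while 0.492% of all genes had groups that did not overlap.

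Among the ligands, the fold changes of Ucn and Cartpt were negative with wide intervals. Mean Ucn was 23.9 ± 19.2 CPM among controls against 13.1 ± 11.2 CPM among STAT3 KO animals (SD, n = 4 and 8). Its log2 fold change was -0.89 (SE 0.61, 95% interval -2.18 to 0.40, adjusted p = 0.786 by edgeR's quasi-likelihood test), and 7 of 8 STAT3 KO mice were under the mean of the controls. The exact two-sided permutation test gave p = 0.368, where the smallest possible is 0.00202. Cartpt averaged 280.4 ± 217 CPM among controls against 147 ± 95.5 CPM among STAT3 KO animals, with a log2 fold change of -0.95 (SE 0.56, 95% interval -2.14 to 0.23, edgeR adjusted p = 0.741, exact permutation p = 0.349). These differences moved both ways with single controls. Without control 3 they were -0.27 for Ucn and -0.36 for Cartpt, and without control 4 they were -1.26 and -1.31, with an exact permutation p of 0.0667 and 0.0727. Without control 4, STAT3 KO 8 and STAT3 KO 16, the libraries richest in forebrain or choroid plexus markers, they were -1.04 and -1.13.

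Of the other Edinger-Westphal markers, 0 of 5 passed the adjusted test, 3 of 5 had an unadjusted p below 0.05 beside 7.66% of all genes, and the median log2 fold change of the 5 was -0.49, against -0.0011 over all genes. Cck averaged 35.3 ± 6.47 CPM among controls against 24.5 ± 7.04 CPM among STAT3 KO animals, with a log2 fold change of -0.55 (SE 0.19, edgeR adjusted p = 0.615, exact permutation p = 0.0384), and all 8 STAT3 KO mice were under the mean of the controls. Postn had a log2 fold change of -0.76 (SE 0.35, edgeR adjusted p = 0.647, exact permutation p = 0.238) and Ghsr of -0.49 (SE 0.22, edgeR adjusted p = 0.633, exact permutation p = 0.162). Without control 3 these were -0.31 and -0.13, and that of Cck was -0.50. Adcyap1 had -0.013 and Nucb2 0.047. The sum of the 5 ranged over 100.7 to 132 CPM among controls and 79.1 to 113 CPM among STAT3 KO animals. Markers of other cells also differed in direction between the groups, with none past the adjusted test. Purkinje and granule cell markers were higher in STAT3 KO for 6 of 6 genes (3 with an unadjusted p below 0.05, median log2 fold change 1.33), ependymal markers for 4 of 4 (2, median 0.88) and choroid plexus markers for 5 of 5 tested (2, median 0.44). The Purkinje and granule cell sums of STAT3 KO 16 (543 CPM) and STAT3 KO 10 (313 CPM) stood above the others, and 6 of 8 STAT3 KO mice were under the controls' mean for Gabra6 and for Neurod1, the first with a difference of -0.30 in mean log2 CPM, opposite in sign to its fitted fold change. Forebrain markers were lower for 6 of 6 (1, median -0.98), where control 4 had 154 CPM and the other controls 16.6 to 29.5 CPM, and dopaminergic markers for 5 of 6 (1, median -0.22). The 1 dopaminergic gene was Slc6a3, with a log2 fold change of -0.91 (SE 0.39, edgeR adjusted p = 0.631). Their part in the differences of Ucn, Cartpt and the Edinger-Westphal markers was not tested.

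Both sexes were in both groups, so the genotypes were also compared within each. Mean Ucn was 38.1 CPM in control females and 11.2 CPM in STAT3 KO females, against 9.76 CPM in control males and 15.0 CPM in STAT3 KO males. The log2 fold change was -1.80 in females (SE 0.49, 95% interval -2.89 to -0.70) and 0.61 in males (SE 0.87, 95% interval -1.36 to 2.59). Mean Cartpt was 435 CPM in control females and 131 CPM in STAT3 KO females, against 125 CPM and 163 CPM in males. Its log2 fold change was -1.76 in females (SE 0.57) and 0.37 in males (SE 0.68). In females the adjusted p was 0.159 for Ucn and 0.221 for Cartpt by edgeR's quasi-likelihood test, and 3 of 6 members, Ucn, Cartpt and Crhr1, had an unadjusted p below 0.05, beside 12.8% of all genes in that fit. In males 0 of 6 had one, beside 2.15% of all genes, and 0 of 6 had an adjusted one, beside 0.0129%. The test of the difference itself did not pass: the interaction of genotype and sex was 2.42 for Ucn on the log2 scale (95% interval -0.078 to 4.91, edgeR adjusted p = 0.921) and 2.13 for Cartpt (95% interval -0.17 to 4.43, edgeR adjusted p = 0.925). For this term 0 of 6 members had an unadjusted p below 0.05, beside 5.49% of all genes. Dopaminergic markers moved alongside: 4 of the 6 had an unadjusted interaction p below 0.05 with a positive term, which was 2.06 for Slc6a3, 1.59 for Pitx3, 1.03 for Th and 0.48 for Aldh1a1, against 0.36 for Nr4a2 and -0.22 for Slc18a2, and none passed the adjusted test. Their part in the values of Ucn and Cartpt was not tested. Each sex had only 2 controls, and the 2 control females were among the 3 animals with most Ucn. Of the STAT3 KO males, STAT3 KO 6 stood highest, with 37.3 CPM of Ucn and 331 CPM of Cartpt. STAT3 KO 8, STAT3 KO 14 and STAT3 KO 15 had 2.56 to 10.6 CPM of Ucn and 59.8 to 135 CPM of Cartpt.

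**Figure D4:**
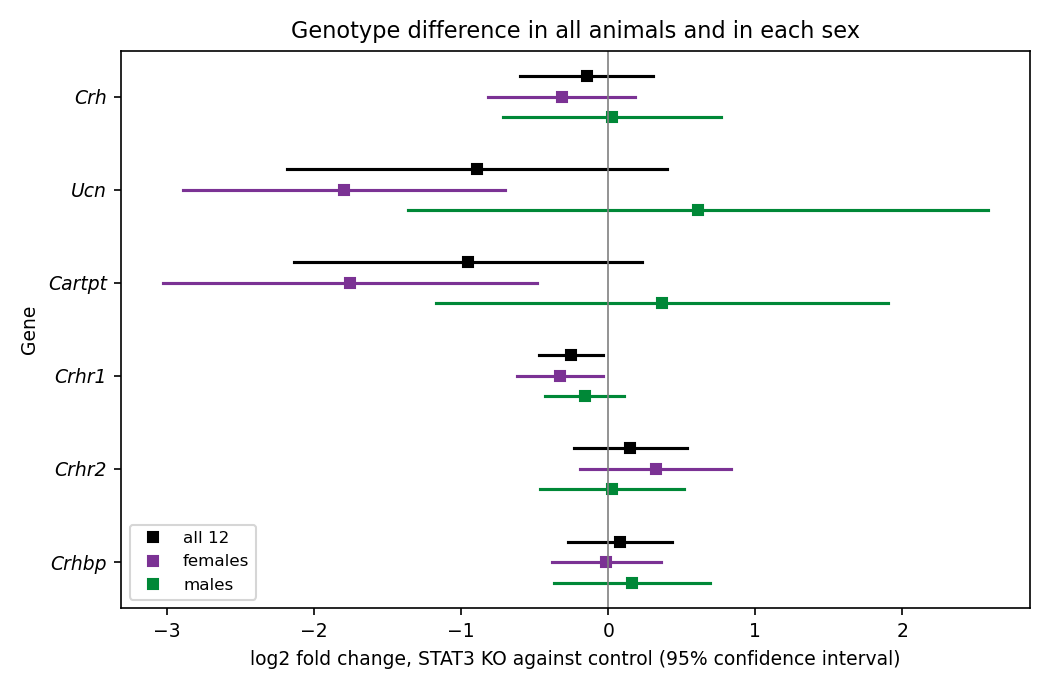
Log2 fold change of STAT3 KO against control for each gene, with 95% confidence intervals, over all 12 animals (black), females (purple) and males (green). For Ucn and Cartpt the females lie below 0 at -1.80 and -1.76 and the male intervals include 0, while Crhr1 is the member whose interval over all animals leaves out 0.

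Crh (ENSMUSG00000049796.4, chr3:19693401-19695396, minus strand, 1320 exonic bases) encodes CRF. It was 5.46 CPM in control 13, 5.39 CPM in control 4, 3.02 CPM in control 3 and 2.40 CPM in control 11, from 63 to 150 counts. STAT3 KO mice had 2.88 to 5.27 CPM with a median of 3.60 CPM, within the range of the controls. The log2 fold change was -0.15 (SE 0.21, 95% interval -0.60 to 0.31, edgeR adjusted p = 0.927). Control 3, with the most Ucn and Cartpt, was the second lowest control for Crh, and r between Crh and Ucn was -0.021 over the 12 animals. The genes most like Crh were Samd1 (r = 0.898), Lmna (0.886), which encodes nuclear lamin A, Rgsl1 (0.860), Zpr1 (0.820) and Nfkbiz (0.799).

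Crhr1 (ENSMUSG00000018634.10, chr11:104132855-104175523, plus strand, 2460 exonic bases) encodes the main CRF receptor. It was 21.4 CPM in control 13, 17.9 CPM in control 4, 26.3 CPM in control 3 and 21.2 CPM in control 11. In STAT3 KO mice the lowest level was 14.9 CPM, the median 18.2 CPM and the highest 21.8 CPM. Of the 8 STAT3 KO mice, 7 were under the controls' mean of 21.7 CPM, yet the groups overlapped, since STAT3 KO 16 exceeded 3 of the 4 controls. The log2 fold change was -0.25 (SE 0.10, 95% interval -0.47 to -0.033). By edgeR's quasi-likelihood test the adjusted p = 0.615, and the unadjusted value was 0.0268. The exact two-sided permutation test gave p = 0.0606. It was negative in both sexes, at -0.33 in females and -0.16 in males, and was -0.14 without control 3. Among the genes most like it were March11 (r = 0.951), a ubiquitin ligase, Adarb1 (0.929), an RNA-editing enzyme, A330050F15Rik (0.928) and Cdk16 (0.922). The r of Crhr1 was 0.708 with Ucn and 0.687 with Cartpt. With the other Edinger-Westphal markers it was 0.848 for Ghsr, 0.707 for Postn, 0.504 for Cck, 0.118 for Adcyap1 and -0.459 for Nucb2. What these genes share with the difference of Crhr1 was not tested.

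Crhr2 (ENSMUSG00000003476.16, chr6:55090049-55133016, minus strand, 5115 exonic bases) encodes the receptor that serotonergic neurons of the DR are known to carry. It was 3.32 CPM in control 13, 3.77 CPM in control 4, 1.80 CPM in control 3 and 3.51 CPM in control 11. STAT3 KO mice had 2.78 to 4.64 CPM with a median of 3.36 CPM. Control 3 was the lowest of all 12 animals for Crhr2, though it was the highest for Ucn, Cartpt and Crhr1. The log2 fold change was 0.15 (SE 0.18, 95% interval -0.24 to 0.53, edgeR adjusted p = 0.905), and it was -0.036 without control 3. These values rest on 49 to 130 counts per library.

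Crhr2 followed most serotonergic markers across animals, which is given as a description over the same 12 libraries. Among the 15452 genes, Tph2, the rate-limiting enzyme of serotonin synthesis in the brain, was the third closest (r = 0.884, rho = 0.909) and Slc18a2, the vesicular monoamine transporter gene, the fourth (r = 0.884). The remaining places among the closest 5 went to Pop7 (0.914), S100a10 (0.903) and Traip (0.881). Of the 8 genes on the serotonergic list, 5 were in the first 25 places: Tph2, Htr1a (0.853), Slc22a3 (0.833), Fev (0.833) and Maob (0.833). The other 3 were further away, with r of 0.549 for Gata2, 0.215 for Gata3 and -0.16 for Slc6a4, the serotonin transporter gene whose locus carries Cre. Slc6a4 was highest in STAT3 KO 5 at 409.9 CPM and control 3 at 315 CPM. Without control 3 and STAT3 KO 6, the animals farthest from the median of Crhr2, r was 0.869 with Tph2, 0.880 with Htr1a, 0.793 with Slc18a2, 0.799 with Pop7 and 0.771 with S100a10. With 1 animal left out, r with Traip fell as low as 0.660. Tph2 averaged 691 ± 111 CPM among controls against 729 ± 107 CPM among STAT3 KO animals, with a log2 fold change of 0.055 (SE 0.11, edgeR adjusted p = 0.958).

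**Figure D5:**
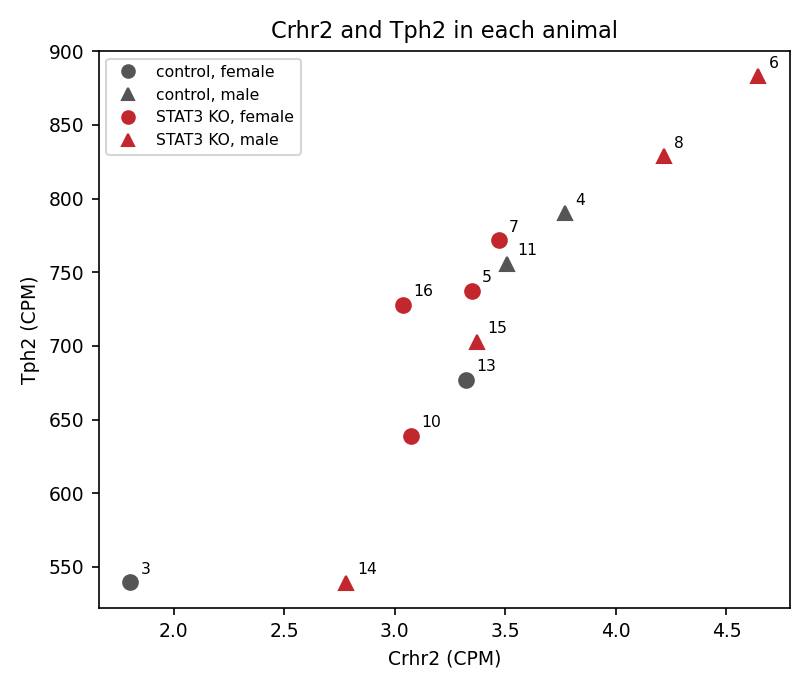
Crhr2 against Tph2 in each of the 12 animals, both in CPM on linear axes that do not start at 0, labelled by animal number. Both genes are low in control 3 and STAT3 KO 14 and highest in STAT3 KO 6 and STAT3 KO 8 (r = 0.884 on the log2 scale).

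Crhbp (ENSMUSG00000021680.8, chr13:95431371-95444924, minus strand, 1800 exonic bases) encodes the protein that binds CRF and urocortin 1 and keeps them from the receptors. It was 10.6 CPM in control 13, 13.2 CPM in control 4, 10.1 CPM in control 3 and 8.96 CPM in control 11, and 7.81 to 17.6 CPM with a median of 10.8 CPM in STAT3 KO. The groups had nearly the same centre. The log2 fold change was 0.078 (SE 0.17, 95% interval -0.28 to 0.43, edgeR adjusted p = 0.958). The genes most like it were 6330549D23Rik (r = 0.842), Card6 (0.834), Myl4 (0.818), Arih2 (0.793) and Kat5 (0.757).

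Downstream of the receptors, 26 genes of CRF receptor signalling were tested, from the G protein and adenylyl cyclase genes to protein kinase A, CREB and arrestins. None passed the adjusted test, and 3 had an unadjusted p below 0.05 with a lower level in STAT3 KO, beside 4.05% of all genes with both. The median log2 fold change of the list was -0.015 (-0.022 to -0.0021 with 1 animal left out), with 9 genes higher and 17 lower, against 7627 higher and 7826 lower among all genes. Adcy9, an adenylyl cyclase gene, averaged 77.9 ± 5.03 CPM among controls against 67.5 ± 4.44 CPM among STAT3 KO animals, and the groups did not overlap. Its log2 fold change was -0.23 (SE 0.056, edgeR adjusted p = 0.615, exact permutation p = 0.00404). Rapgef4, a cAMP-activated exchange factor, had a log2 fold change of -0.11 (SE 0.043, edgeR adjusted p = 0.615, exact permutation p = 0.0222).

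Of 13 genes that process peptides or build dense core vesicles, 0 had an unadjusted p below 0.05, beside 7.66% of all genes. Their median log2 fold change was 0.015 with 7 higher and 6 lower, and it ran from -0.0087 to 0.048 with 1 animal left out. The smallest p values belonged to Cadps, a vesicle priming factor (log2 fold change -0.11, SE 0.051), and Pcsk2, a prohormone convertase (-0.068, SE 0.048), whose value was -0.031 without control 11 and -0.10 without control 3. One granin of this list, Scg2, was the seventh closest gene to Crhr2 (r = 0.878). With Ucn, r in this list ran from -0.602 for Scg3 to 0.812 for Chga. Of the CRF receptor signalling list, Adcy2 came last of the 15452 genes in likeness to Cartpt (r = -0.912). The highest r of that list with Cartpt was 0.480, for Rapgef3. Gpr160, a proposed CART receptor, was low, with a mean of 0.831 CPM among controls against 0.929 CPM among STAT3 KO animals and a log2 fold change of 0.13 (SE 0.27, edgeR adjusted p = 0.957).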

How the data were processed

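RNA of the DR of each animal was sequenced by the authors (single reads, NextSeq) and mapped to mm10 with STAR 2.5.0b according to the submitters' processing notes. What the authors deposited are raw read counts for each symbol and animal, not normalised. Read counter, annotation and strand are not given in the sources used here, so reads from a gene and an antisense partner could not be told apart. In GENCODE vM21 no other gene overlaps a member. Rows for reads assigned to no single gene, 13.9% to 15.8% of reads, were left out. Over 66 pairs of libraries, the chi-square of the counts per gene was 5.24 to 29.1, so no library was a copy. Nothing states that animals were batched.

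CPM are over library totals. The two-sided edgeR 4.0.16 quasi-likelihood test used TMM, filterByExpr by genotype (10 counts per library, 15 in total) and no covariate. All 6 members passed. Log2 CPM, from which r, rho and the permutation test were computed, used the TMM factors and a prior count of 2. The exact permutation test ran over all 495 ways to choose 4 of 12 animals, and the relation of Ucn and Cartpt used 100000 resamples. Intervals are at 95%. R 4.3.3, limma 3.58.1, DESeq2 1.42.0, Python 3.11.15, pandas 2.3.3, numpy 2.4.6, scipy 1.17.1 and matplotlib 3.10.9 were used, and the fits were tested on simulated data.

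The members, the lists and the tests were chosen with earlier results of these data known. Named besides the members are Stat3, list genes with an unadjusted p below 0.05 (otherwise the 2 with the smallest p), the 5 genes closest to each member, all Edinger-Westphal markers, and marker genes set beside a member. Of the genes this rule names, 2 are not reported here, though they stay in the tests and counts. Scg2 and other likeness values of pathway genes and of Crhr1 were picked after their values were seen. So were the likeness and interaction values of serotonergic and dopaminergic genes and the r without low animals. Exon lengths and positions are those of GENCODE vM21 (GRCm38), counted from 1, while the authors' annotation may differ.

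The other settings tried were limma-voom with quality weights, a likelihood ratio test in edgeR, DESeq2, RLE or library totals for TMM, other filters, sex as covariate, each sex alone, each animal left out, another prior count, and mean CPM.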

Additional observations from a re-analysis of the deposited data

How the results depend on the processing

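Of 592 results under an alternative, 552 kept their direction and side of the threshold. Over all genes, 0 calls became 6 with DESeq2, 3 with edgeR's likelihood ratio test, 2 in males only, 2 without control 4, STAT3 KO 8 and STAT3 KO 16 (chosen after seeing the data), and 0 to 1 with an animal left out. The log2 fold change turned in males only for Crh (0.024), Ucn (0.61), Cartpt (0.37), Postn (0.034), Adcyap1 (0.10) and Gpr160 (-0.21), and in females only for Crhbp (-0.013) and Stat3 (0.036). Without control 4, STAT3 KO 8 and STAT3 KO 16 it turned for Crh (0.11), Adcyap1 (0.0017) and Stat3 (0.011). With library totals it turned for Adcyap1 (0.0096) and Stat3 (0.015), and with limma-voom for Stat3 (0.0020). With 1 animal left out it ran from -0.33 to 0.026 for Crh, -1.33 to -0.27 for Ucn, -1.31 to -0.36 for Cartpt, -0.33 to -0.14 for Crhr1, -0.036 to 0.26 for Crhr2, -0.037 to 0.20 for Crhbp, -0.083 to 0.25 for Gpr160, -0.047 to 0.020 for Adcyap1 and -0.020 to 0.0047 for Stat3. The difference in mean log2 CPM of the permutation test then ran from -0.30 to 0.081 for Crh, -1.57 to -0.28 for Ucn, -1.53 to -0.27 for Cartpt, -0.053 to 0.29 for Crhr2, -0.035 to 0.16 for Crhbp and -0.33 to -0.15 for Crhr1, whose exact permutation p was 0.0303 without control 4 and 0.0364 without STAT3 KO 16. The median of the peptide processing list turned in males only (-0.019) and that of CRF receptor signalling in females only (0.025), with library totals (0.0074) and without the 3 libraries (0.0096). The cause was not tested. No member passed an adjusted p of 0.05 under any alternative run for it. Library totals moved the median of all genes by 0.022. No paired analysis was possible because the groups share no animal numbers.

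With 4 controls, the interval of Ucn spans more than 2 units on the log2 scale. Crh and Crhr2 rest on 49 to 150 counts per library.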

Other observations

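Other marker lists gave these summed levels. Dopaminergic markers had 641 to 811 CPM in controls and 558 to 753 CPM in STAT3 KO. Noradrenergic markers had 2.87 to 20.6 CPM and 2.80 to 57.7 CPM, and GABAergic markers 1505 to 1669 CPM and 1484 to 1761 CPM. Hypothalamic peptide genes had 2.80 to 3.45 CPM and 2.87 to 4.39 CPM. Ependymal markers had 21.3 to 63.3 CPM and 32.3 to 83.9 CPM, and vascular smooth muscle markers 27.9 to 42.0 CPM and 19.2 to 49.5 CPM. Purkinje and cerebellar granule cell markers had 78.8 to 127 CPM in controls and 74.3 to 543 CPM in STAT3 KO, with the highest sums in STAT3 KO 16 and STAT3 KO 10. Cholinergic markers had 134 to 187 CPM and 87.7 to 221 CPM. Of the tested genes, the number higher in STAT3 KO and the number with an unadjusted p below 0.05 were 6 and 0 of 7 for the cholinergic list, 6 and 0 of 8 for the serotonergic, 3 and 0 of 3 for the noradrenergic, 3 and 1 of 6 for the GABAergic, 1 and 1 of 2 for the hypothalamic and 0 and 0 of 4 for the smooth muscle list.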
